A study of Mus musculus with 8 samples.

Results

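The genes described here are 42 listed G2 and mitosis genes, which encode the machinery that takes a cell from replicated DNA through chromosome segregation to division. They were chosen by symbol, with earlier results of these data known, and each gene is represented by its brightest single-symbol probe set over the 8 arrays. Of the 42, 41 were measured, out of 12393 genes in all, and Ccnb1 had no single-symbol probe set in the annotation used. Expression was measured on Affymetrix 3′ arrays in 3 groups of mouse bone marrow cells, all labelled strain C57/BL6 and 12 weeks old. LSK cells (3 arrays) were Lin-Sca1+Kit+ cells of normal mice, a fraction enriched for stem and multipotent progenitor cells. WT CML LICs (3 arrays) were wild-type leukaemia-initiating cells, GFP+Lin-Sca1+Kit+, from a retroviral mouse model of chronic myeloid leukaemia 14 days after bone marrow transplantation. Ezh2 KO CML LICs (2 arrays) came from the same model and time and lacked Ezh2, the Polycomb enzyme that methylates histone H3. The oncogene, the Cre or deletion that removes Ezh2, and any pooling of animals are not stated in the labels. Each sample was sorted in a pair of rounds. The labels call the repeats biological without naming animals, so p-values measure the spread between these samples.

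Entry into mitosis is driven by the kinase CDK1 bound to A- and B-type cyclins, and its exit by the anaphase-promoting complex with its activator CDC20. The genes concerned are transcribed late in the cell cycle. In resting cells the DREAM complex, which contains the pocket protein RBL2 (p130), holds many of them down, and in cycling cells MYBL2 (B-MYB) and FOXM1 take part in their induction. CCAAT boxes bound by NF-Y and cell cycle genes homology regions in their promoters are known elements of this control. Normal long-term stem cells are largely quiescent, so in marrow these transcripts mark progenitor and precursor cells in cycle.

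The check of the labels by the deleted gene came out as labelled: Ezh2 read 8.94 and 9.55 (log2 intensity) on the Ezh2 KO arrays and 11.26 to 11.44 on the WT LIC arrays, a fall of 2.10 (SE 0.21, adjusted p = 0.00985, limma). Whether its probe set lies in the deleted part is not known here. Array medians ranged from 6.42 to 6.57 (log2). Kit, which the gate requires, was detected at 9.69 or more on each array but was lower in LICs than in LSK cells, by a difference of -1.19 in WT LICs (adjusted p = 0.00887, limma) and -0.78 in Ezh2 KO LICs (adjusted p = 0.0455). Flt3 and Cd34, carried by many progenitors in this gate, differed by -1.92 and -0.32 in WT LICs, without a call. Ly6a, which encodes Sca1, had no measured probe set, and none of 5 measured T cell markers had a group mean above 4.29. LSK arrays lacked the Y-linked transcript Eif2s3y (1.29 to 1.63, log2) and all 5 LIC arrays carried it (9.21 to 9.80). Sex, transplantation, infection and leukaemia therefore cannot be told apart in comparisons with LSK cells, and in these sorted bulk samples neither can more dividing cells and more RNA per dividing cell.

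WT LICs were first set against LSK cells, to see what separates the leukaemic fraction from its normal counterpart. G2 and mitosis transcripts were higher in the WT LICs in nearly every member: 40 of 41 differences lay above 0, against 52.2% of all genes, and 1 below, against 47.8%. The median member difference was 0.66 on the log2 scale, a 1.59-fold difference, where the median of all genes was 0.02. With the test applied to all 12393 genes (limma, called at a Benjamini-Hochberg adjusted p under 0.05), 9 members rose, none fell and 32 did not pass, where 3.42% of all genes were called, 1.27% higher and 2.15% lower. At an unadjusted p under 0.05, 25 members were higher, against 9.33% of all genes. Of all genes called, 37.0% were higher, or 54.1% with arrays centred on their medians. On 31 members every WT LIC array lay above every LSK array, a pattern found in 13.5% of all genes, and on no member did every WT LIC array lie below. The 9 were Nuf2, Kif20a, Plk1, Cdc20, Ccnf, Cdc25c, Ttk, Ccna2 and Bub1b, which span CDK1 activation, kinetochores, the spindle checkpoint, anaphase and cytokinesis. Differences of at least 1 were found for 11 members, 8 of them called, differences from 0.5 to under 1 for 17, and from 0 to under 0.5 for 12. The number called depended on single arrays: it was 3 without LSK replicate 1 or 2, 1 without WT LIC replicate 1 or 2, and 11 without WT LIC replicate 3. Nuf2 alone was called under each of 18 alternative analyses.

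**Figure D1:**
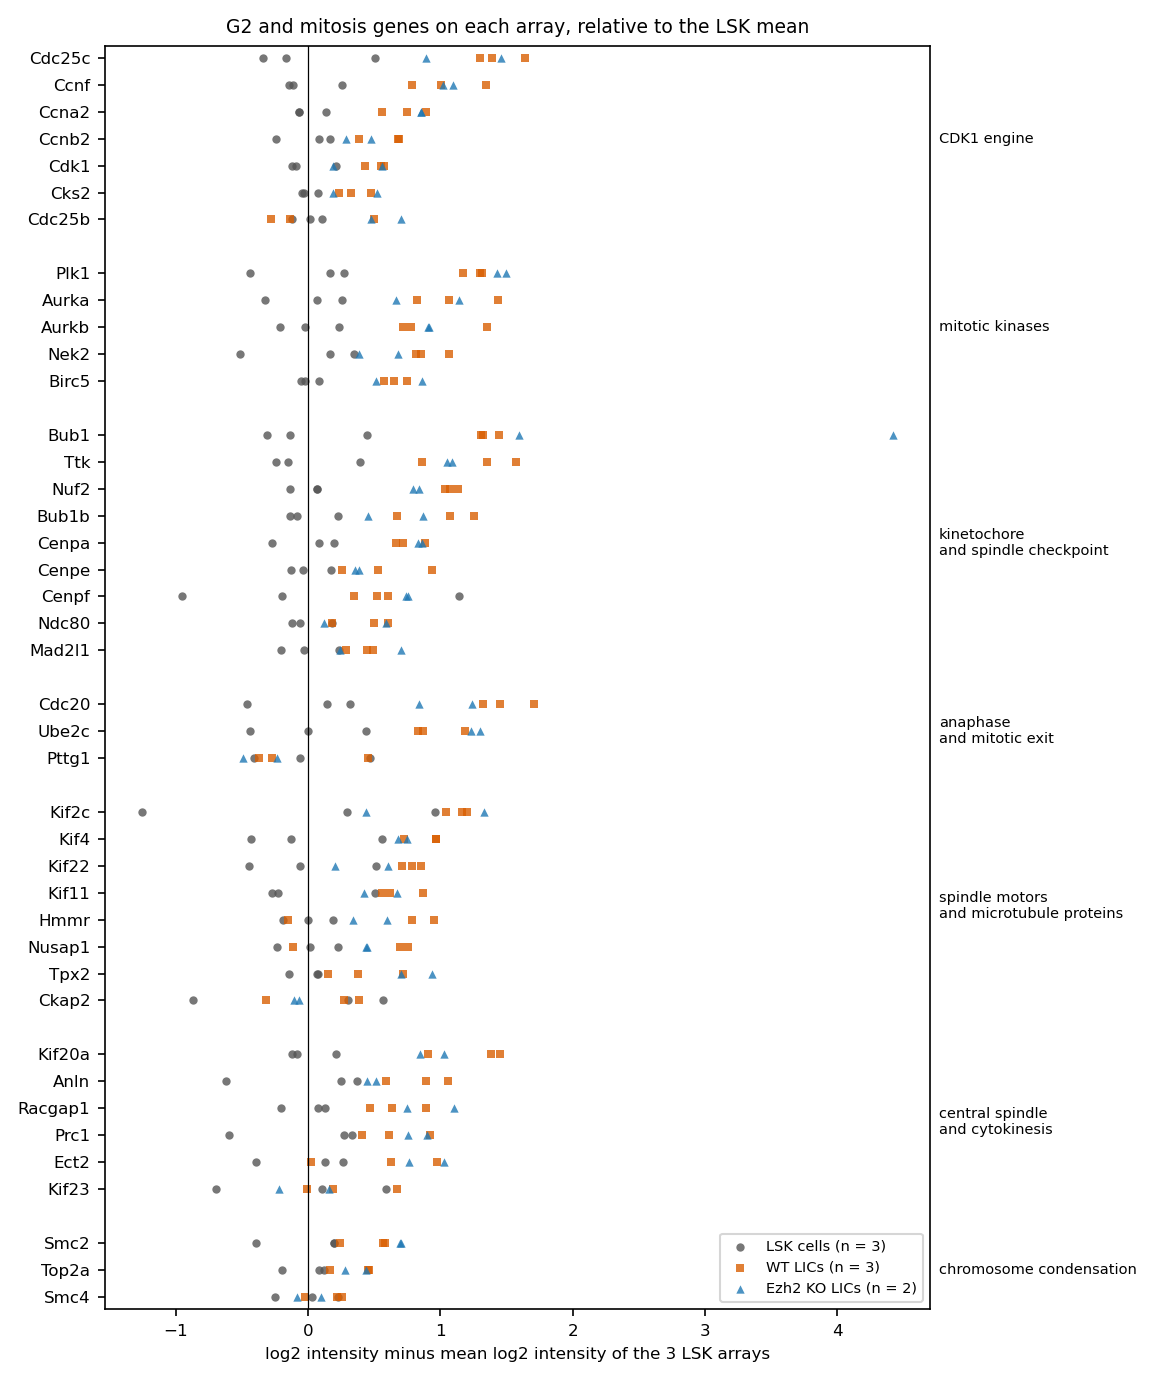
Log2 intensity of each of the 41 measured members on each of the 8 arrays, minus the mean of the 3 LSK arrays (x axis, log2), with genes grouped by role (y axis); circles are LSK cells, squares WT LICs and triangles Ezh2 KO LICs. The squares lie to the right of all circles for 31 members, Pttg1, Ckap2, Cdc25b and Kif23 show mixed symbols, and a single Ezh2 KO array stands far out for Bub1.

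The promoters of the called members with the smallest p that had an entry in the RefSeq promoter table are shown because CCAAT boxes and homology regions are known elements of such promoters. Each is the 250 bases before the annotated start on GRCm38.p6, written 5′ to 3′ on the gene's strand. Capitals mark a CCAAT box (CCAAT) or a cell cycle genes homology region (TTTGAA or TTTAAA), searched on both strands. Nuf2 lies at chr1:169531465-169531714 (minus strand), Plk1 at chr7:122159185-122159434 (plus strand), Cdc20 at chr4:118437344-118437593 (minus strand) and Ccnf at chr17:24251410-24251659 (minus strand).
Nuf2: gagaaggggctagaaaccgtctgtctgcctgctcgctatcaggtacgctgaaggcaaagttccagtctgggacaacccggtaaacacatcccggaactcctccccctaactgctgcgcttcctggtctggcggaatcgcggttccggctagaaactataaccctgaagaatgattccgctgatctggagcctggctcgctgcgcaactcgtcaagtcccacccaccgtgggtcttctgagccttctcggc
Plk1: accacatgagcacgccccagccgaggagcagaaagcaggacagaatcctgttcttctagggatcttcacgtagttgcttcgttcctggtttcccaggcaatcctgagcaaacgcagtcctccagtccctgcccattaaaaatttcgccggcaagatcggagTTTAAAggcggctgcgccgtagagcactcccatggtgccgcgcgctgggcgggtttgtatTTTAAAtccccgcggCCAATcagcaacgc
Cdc20: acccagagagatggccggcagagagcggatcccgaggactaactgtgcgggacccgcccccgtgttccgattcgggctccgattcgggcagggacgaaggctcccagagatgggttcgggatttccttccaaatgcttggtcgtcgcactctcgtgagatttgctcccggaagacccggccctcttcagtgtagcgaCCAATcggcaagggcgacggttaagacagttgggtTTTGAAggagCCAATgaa
Ccnf: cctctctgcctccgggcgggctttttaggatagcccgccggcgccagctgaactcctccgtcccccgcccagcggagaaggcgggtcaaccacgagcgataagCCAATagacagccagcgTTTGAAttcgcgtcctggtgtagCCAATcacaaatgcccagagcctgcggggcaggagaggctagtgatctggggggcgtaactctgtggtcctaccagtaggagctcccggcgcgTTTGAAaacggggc

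Cdc20 has CCAAT at 53 to 49 and 8 to 4 bases before its start with TTTGAA between them, at 18 to 13. In Plk1, TTTAAA stands at 89 to 84 and 29 to 24 bases before the start and CCAAT at 14 to 10. The Nuf2 window holds neither set of letters, although Nuf2 had the smallest p of the members. Of the 41 measured members 35 had an entry, with 37 promoter windows; Aurkb, Ccna2, Cdc25c, Kif20a, Smc4 and Tpx2 had none. CCAAT was found in 29 of the 37 windows, or 78.4%, against 33.8% of the 32851 windows in the table. A homology region was found in 18, or 48.6%, against 25.2%, and both in 16, or 43.2%, against 8.78%. Among windows of called members 5 of 6 held CCAAT, and among those of members not called 24 of 31. A match of letters is a description and does not show a bound site.

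Among genes of the CDK1 engine, 3 of 7 measured members rose in WT LICs, none fell, and the group median was 0.59. Cdc25c encodes a phosphatase that switches CDK1 on by removing inhibitory phosphates. Its log2 intensities were 6.53, 6.35 and 7.20 on the LSK arrays, 8.09, 8.33 and 7.99 on the WT LIC arrays, and 8.15 and 7.59 on the Ezh2 KO arrays. Every LIC array lay above every LSK array, and Cdc25c rose 1.44 between LSK cells and WT LICs (SE 0.26, adjusted p = 0.0328). Ccnf encodes cyclin F, the F-box subunit of a ubiquitin ligase that acts late in the cycle. It read 7.97, 8.0 and 8.37 in LSK cells, 9.11, 9.46 and 8.90 in WT LICs, and 9.13 and 9.21 in Ezh2 KO LICs. It rose 1.05 (SE 0.19, adjusted p = 0.0328), again with no overlap. Ccna2, the cyclin A of S and G2 phase, read 10.41, 10.41 and 10.61 in LSK cells, 11.23, 11.37 and 11.04 in WT LICs, and 11.33 on both Ezh2 KO arrays. On the probe set used it rose by less, 0.73 (SE 0.14, adjusted p = 0.0386), but its dimmer probe set differed by 1.43. Cdk1 itself differed by 0.52 (adjusted p = 0.13) and Ccnb2 by 0.59 (adjusted p = 0.106), both without overlap of arrays and below the threshold of the test. Cks2, a small CDK-binding subunit, differed by 0.35 (adjusted p = 0.234) without overlap. Cdc25b, a phosphatase of the same family as Cdc25c, differed by 0.03 (95% confidence interval -0.49 to 0.54), with overlapping arrays.

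The kinase and chromosomal passenger genes had the next largest group median, 0.95 over 5 members, behind the 0.96 of the 3 anaphase genes, and 1 of the 5 was called. Plk1, the kinase that controls centrosome maturation, mitotic entry and cytokinesis, read 7.46, 6.75 and 7.35 in LSK cells, 8.48, 8.50 and 8.36 in WT LICs, and 8.68 and 8.61 in Ezh2 KO LICs. The LIC arrays lay within a narrow band, at least 0.9 above the highest LSK array, and Plk1 rose 1.26 in WT LICs, or 2.4-fold (SE 0.20, adjusted p = 0.0221). Aurka, the spindle pole kinase, differed by 1.11 (adjusted p = 0.0518). Aurkb and Birc5, both parts of the chromosomal passenger complex, differed by 0.95 and 0.66 (adjusted p = 0.0565 and 0.056). These 3 lay just beyond the threshold with no overlap of arrays, as did the centrosomal kinase gene Nek2 at 0.91 (adjusted p = 0.0858).

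Of 9 kinetochore and spindle checkpoint genes, 3 rose and none fell, with a group median of 0.76. Nuf2, a subunit of the NDC80 complex that attaches kinetochores to microtubules, was the steadiest member within groups. It read 8.99, 8.78 and 8.98 in LSK cells, 10.05, 9.95 and 9.99 in WT LICs, and 9.75 and 9.71 in Ezh2 KO LICs. It rose 1.08, or 2.11-fold (SE 0.13, adjusted p = 0.0078), and its adjusted p ranged from 0.00244 to 0.0346 over the alternatives. Its partner in that complex, Ndc80, differed by 0.43 (adjusted p = 0.258) with overlapping arrays. Ttk encodes MPS1, the kinase that starts checkpoint signalling. It read 7.78, 7.69 and 8.32 in LSK cells, 9.50, 9.29 and 8.79 in WT LICs, and 8.98 and 9.02 in Ezh2 KO LICs, a rise of 1.26 in WT LICs (SE 0.24, adjusted p = 0.0366). Bub1b, which encodes the checkpoint protein BUBR1, read 8.78, 8.84 and 9.15 in LSK cells, 10.18, 10.00 and 9.60 in WT LICs, and 9.37 and 9.79 in Ezh2 KO LICs. It rose 1.00 (SE 0.21) at the edge of the threshold (adjusted p = 0.0493) and lost its call under 10 of 18 alternatives. Cenpa, the histone variant of centromeres, differed by 0.76 (adjusted p = 0.0514). The kinetochore motor gene Cenpe and the checkpoint gene Mad2l1 differed by 0.57 and 0.41 (adjusted p = 0.159 and 0.258) without overlap. Cenpf, a large kinetochore protein, spread from 6.83 to 8.92 over the LSK arrays alone and differed by 0.49 (adjusted p = 0.608).

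The 3 anaphase genes did not move together. Cdc20, the activator of the anaphase-promoting complex, had the largest difference of the 41 members in this comparison. It read 8.86, 9.65 and 9.47 in LSK cells, 10.78, 11.03 and 10.65 in WT LICs, and 10.57 and 10.17 in Ezh2 KO LICs. Cdc20 rose 1.49 in WT LICs, or 2.81-fold (SE 0.24, adjusted p = 0.0225), and its other 2 probe sets differed by 1.15 and 1.34. Ube2c, the ubiquitin-conjugating enzyme of the same complex, differed by 0.96 (adjusted p = 0.0722) without overlap of arrays. Pttg1 encodes securin, the inhibitor of separase that this complex destroys. It read 10.55, 10.90 and 11.43 in LSK cells and 11.42, 10.69 and 10.60 in WT LICs, with a difference of -0.06 (95% confidence interval -0.75 to 0.63). It was the only member whose difference lay below 0.

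None of 8 spindle motor and microtubule genes was called, although all 8 differences lay above 0 (median 0.61) and 5 had no overlap of arrays. Kif2c, a microtubule-depolymerising kinesin, was on the probe set used among the most variable members in LSK cells. It read 8.60 to 8.76 on the WT LIC arrays but 8.52, 6.31 and 7.86 on the LSK arrays, a difference of 1.14 with an adjusted p of 0.28. The next brightest Kif2c probe set ran otherwise on the LSK arrays, at 6.01, 7.63 and 6.11. The dimmer Kif2c probe sets differed by 0.50, 0.99 and 1.26. Kif4, a chromosome-bound kinesin whose gene is on the X chromosome, differed by 0.89 (adjusted p = 0.101). Kif22, another chromosome-bound kinesin, differed by 0.78 (adjusted p = 0.138), and Kif11, the kinesin that separates spindle poles, by 0.68 (adjusted p = 0.16). Tpx2, the activator of Aurora A on the spindle, read 10.69, 10.46 and 10.67 in LSK cells, 10.76, 11.32 and 10.98 in WT LICs, and 11.31 and 11.55 in Ezh2 KO LICs. The WT LIC arrays lay only just clear of the LSK arrays, with a difference of 0.41 (adjusted p = 0.251). Hmmr, Nusap1 and Ckap2, which bind microtubules, differed by 0.53, 0.45 and 0.11 with overlapping arrays on the probe sets used. The dimmer Hmmr probe sets differed by 1.10, 0.85 and 1.21, each without overlap of arrays. The dimmer Nusap1 probe set differed by 0.12 with overlap.

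Of 6 central spindle and cytokinesis genes 1 rose, and the group median was 0.66. Kif20a encodes the kinesin that carries regulators to the central spindle. It read 8.37, 8.33 and 8.66 in LSK cells, 9.90, 9.84 and 9.36 in WT LICs, and 9.49 and 9.30 in Ezh2 KO LICs. It rose 1.24, or 2.37-fold (SE 0.19, adjusted p = 0.0199). Racgap1, its central spindle partner Kif23 and the exchange factor gene Ect2 act in one pathway to place the division furrow. They differed by 0.66, 0.28 and 0.54 (adjusted p = 0.0938, 0.701 and 0.329). Anln, the actin-binding anillin of the furrow, and Prc1, a bundler of central spindle microtubules, differed by 0.85 and 0.65 without overlap of arrays (adjusted p = 0.141 and 0.234). The 3 chromosome condensation genes had the smallest group median, 0.36, and none was called. Smc2, a core condensin subunit, read 10.64, 10.05 and 10.65 in LSK cells, 10.69, 11.03 and 11.02 in WT LICs, and 11.14 and 11.15 in Ezh2 KO LICs (difference 0.46, adjusted p = 0.248). Top2a, the topoisomerase that untangles sister DNA, differed by 0.36 (adjusted p = 0.25), and Smc4, the other condensin core subunit, by 0.15 (adjusted p = 0.672).

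**Figure D2:**
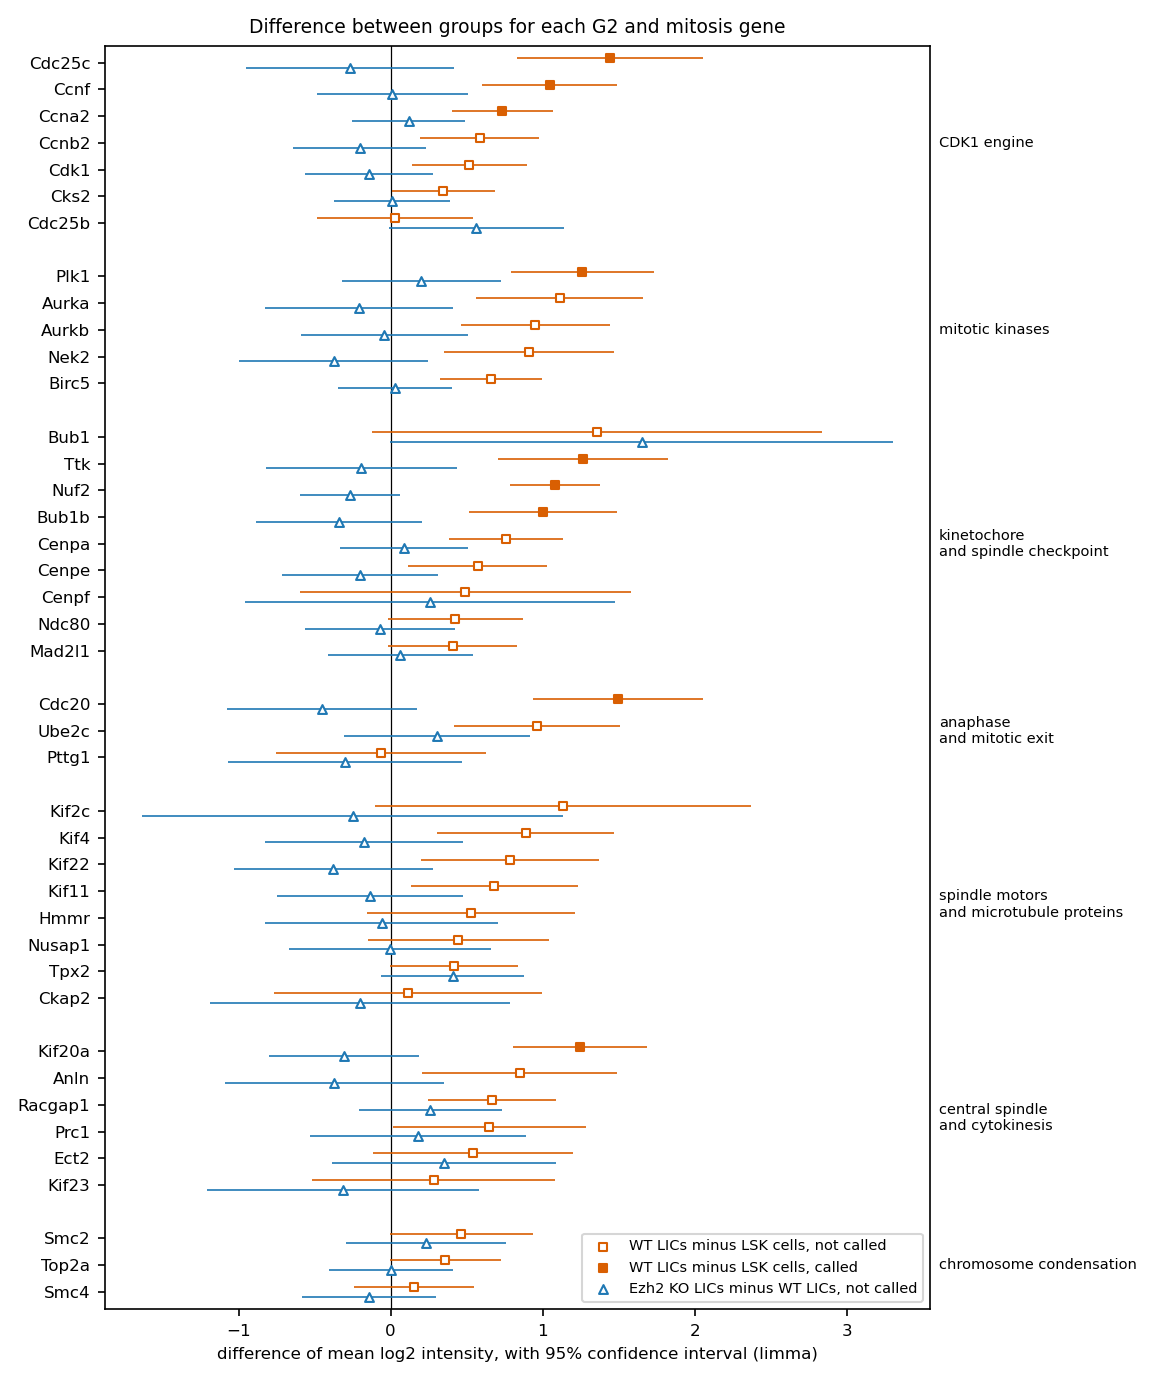
Difference of mean log2 intensity for each member (x axis) with its 95% confidence interval from limma, for WT LICs minus LSK cells (squares) and Ezh2 KO LICs minus WT LICs (triangles); filled symbols passed the adjusted threshold. The squares are spread from -0.06 for Pttg1 to 1.49 for Cdc20 with 9 filled, and the triangles lie around 0 with none filled; both series use the WT LIC arrays.

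By array, the median over the members was lower on each LSK array than on each LIC array. The median deviation of the members from their own mean over the 8 arrays was -0.50, -0.56 and -0.32 (log2) on LSK replicates 1, 2 and 3. It was 0.25, 0.38 and 0.17 on the WT LIC arrays and 0.31 and 0.14 on the Ezh2 KO arrays, while the median over all genes stayed between -0.05 and 0.03. LSK replicate 3 was the highest of the LSK arrays for 20 of the 41 members and the lowest for 3, and LSK replicate 2 was the lowest for 22. Among WT LICs replicate 2 was the highest for 21 members and replicate 3 the lowest for 24.

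**Figure D3:**
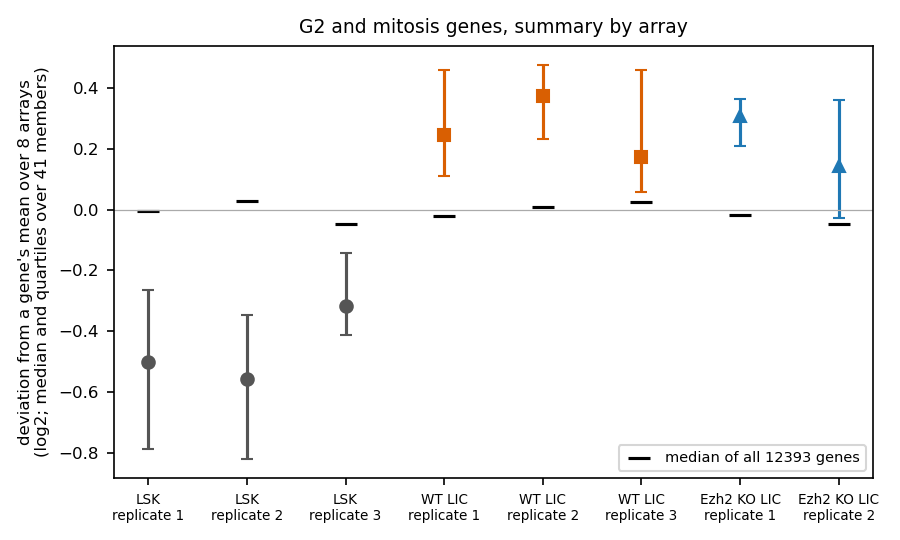
Median and quartiles over the 41 members of the deviation from each gene's own mean over the 8 arrays (y axis, log2), by array; black dashes are the median of all 12393 genes. The 3 LSK arrays lie between -0.56 and -0.32 and the 5 LIC arrays between 0.14 and 0.38, while the dashes stay near 0.

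Erythroid transcripts differed between the WT LIC arrays. Klf1, an erythroid transcription factor, read 10.78, 9.81 and 4.89 on WT LIC replicates 1, 2 and 3, against 7.23 to 7.82 in LSK cells and 7.37 and 5.80 in Ezh2 KO LICs. Ermap, an erythroid membrane protein, read 11.42, 10.79 and 3.85 on the WT LIC arrays. The summed level of the 6 measured of 8 erythroid markers was 13.07 to 13.22 (log2) in LSK cells, 11.74 to 13.94 in WT LICs and 12.05 to 12.20 in Ezh2 KO LICs, and Hba-a1 was under background throughout. WT LIC replicate 3 was the lowest of the WT LIC arrays for 24 of 41 members. On WT LIC replicates 1, 2 and 3, 34, 36 and 34 of the 41 members lay above every LSK array. On the Ezh2 KO arrays 36 and 31 did. Between 28.1% and 33.6% of all genes lay above every LSK array on the single LIC arrays. Summed levels of antibody-secreting cell markers (6 measured of 6, none under background on every array) were 12.68 to 13.28 in LSK cells and 10.39 to 10.75 in WT LICs, those of granulocyte precursors (8 of 8) were 13.65 to 13.84 and 14.01 to 14.26, those of monocytes (7 of 7, Itgam under background throughout) 12.22 to 12.34 and 10.26 to 11.52, and those of megakaryocytes (6 of 6) 10.42 to 11.20 and 8.35 to 9.34. Among these marker genes Jchain (-5.77), Ighm (-4.47), Lyz2, F13a1, Pf4, Treml1 and Gp9 were called lower in WT LICs than in LSK cells (limma). Ms4a3 was called higher (1.90). Xbp1, in the antibody-secreting sum, differed by 0.43 without a call. The part of these 5 marker lists in the result was not tested.

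Ezh2 KO and WT LICs were then compared, which addresses the effect of Ezh2 loss in leukaemic cells. No mitotic transcript passed the test here: none of the 41 members was called by limma, none had an unadjusted p under 0.05 in either direction, and 0.637% of all genes were called, 0.589% higher and 0.0484% lower. At an unadjusted p under 0.05, 6.16% of all genes were higher and 4.97% lower. Differences lay above 0 for 17 members and below 0 for 24, against 43.3% and 56.7% of all genes, with a median of -0.07 against -0.05 over all genes. All Ezh2 KO arrays lay above all WT LIC arrays for 5 members and below for 5, where 13.2% and 16.6% of all genes did so. The 95% confidence interval lay within 1 log2 unit of 0 in both directions for 30 members, so a 2-fold difference was outside it; for the other 11 it was not. This comparison uses the same WT LIC arrays as the first.

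The members with the smallest p here were Bub1, Cdc25b and Tpx2. Bub1, a checkpoint kinase of the kinetochore, read 8.45, 8.28 and 9.04 in LSK cells, 10.03, 9.90 and 9.91 in WT LICs, and 10.18 and 13.01 in Ezh2 KO LICs. Ezh2 KO replicate 2 alone stood apart, and the difference of 1.65 did not pass (SE 0.71, adjusted p = 0.449, limma). With that array left out the difference was 0.24, and with replicate 1 left out it was 3.06 and called (adjusted p = 0.0265). A second, dimmer Bub1 probe set did not follow: it read 7.09 and 7.08 on the Ezh2 KO arrays and 6.86, 7.23 and 7.69 on the WT LIC arrays. On that probe set WT LICs exceeded LSK cells by 1.25, close to the 1.36 of the brightest one (adjusted p = 0.28). Cdc25b read 9.60, 10.24 and 9.46 in WT LICs and 10.22 and 10.45 in Ezh2 KO LICs, a difference of 0.56 with overlapping arrays (adjusted p = 0.453). Tpx2 differed by 0.41 (adjusted p = 0.5), and its dimmer probe set by -0.25. Among the members called between WT LICs and LSK cells, the Ezh2 KO minus WT LIC difference ran from -0.45 for Cdc20 (95% confidence interval -1.08 to 0.17) to 0.20 for Plk1 (-0.32 to 0.72). Those members were picked by high values on the same WT LIC arrays, so this range is not independent of the calls.

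**Figure D4:**
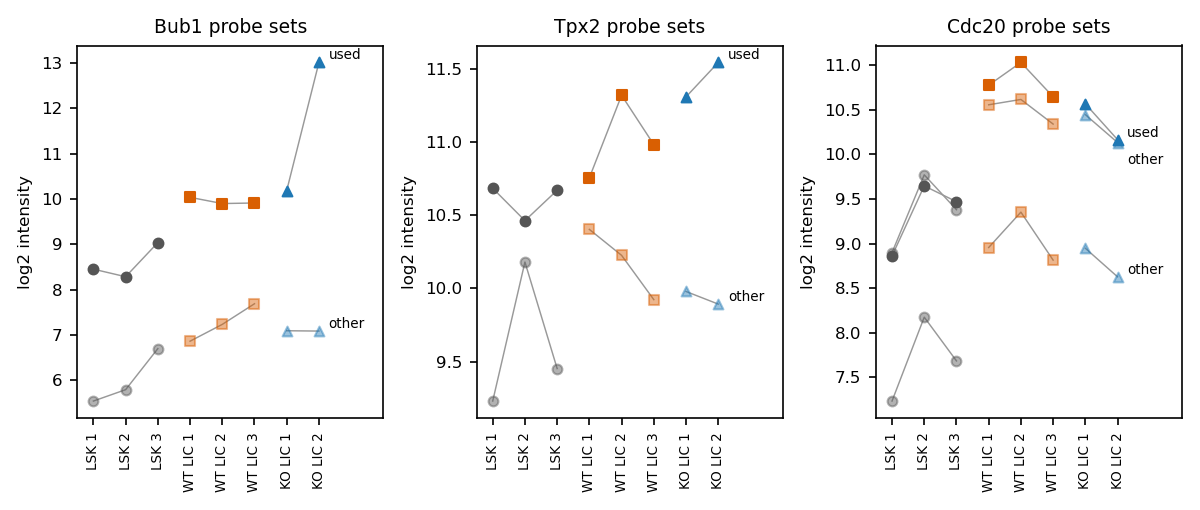
Log2 intensity (y axis) on each array for every single-symbol probe set of Bub1, Tpx2 and Cdc20; full colour marks the probe set used and pale symbols the others. Ezh2 KO LIC replicate 2 reads 13.01 on the Bub1 probe set used and 7.08 on the other, while the 3 Cdc20 probe sets run in parallel.

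Markers of B cell precursors differed between the LIC groups. Their summed level (7 measured of 8, Pax5 under background throughout) was 8.81 to 9.78 in WT LICs and 12.17 to 12.87 in Ezh2 KO LICs, with Igll1 at 11.36 and 10.31 and Vpreb1 at 10.90 and 10.40 on the Ezh2 KO arrays. Of the 7, 3 were called higher by limma (Igll1, Cd79a and Rag1), where 0.589% of all genes were, and Vpreb1 did not pass (adjusted p = 0.0852). Erythroid markers were lower there than on WT LIC replicates 1 and 2, as given above. Of 8 granulocyte precursor markers 7 lay below 0 (median -0.49, none called), against 56.7% of all genes. Of 6 antibody-secreting cell markers, all Ezh2 KO arrays lay above all WT LIC arrays for 2 (Sdc1 and Irf4) and below for 3, without a call. The shares of all genes were 13.2% and 16.6%. The part of these lists in the mitotic levels was not tested.

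Compared with LSK cells, Ezh2 KO LICs also had higher mitotic transcripts, with 5 of 41 members risen, none fallen and 36 that did not pass (limma), where 3.47% of all genes were called, 1.61% higher and 1.86% lower. The median difference was 0.70 against -0.02 over all genes, 38 differences lay above 0, against 47.2% of all genes, and 31 members had no overlap of arrays, as 18.2% of all genes did. Plk1 rose 1.46 (SE 0.22, adjusted p = 0.0208), Ube2c 1.27 (SE 0.26, adjusted p = 0.0471), Ccnf 1.06 (SE 0.21, adjusted p = 0.0433), Ccna2 0.85 (SE 0.16, adjusted p = 0.0358) and Nuf2 0.81 (SE 0.14, adjusted p = 0.0286). Ube2c, which carries ubiquitin to the anaphase-promoting complex, read 10.12, 9.68 and 10.56 in LSK cells, 10.98, 11.30 and 10.95 in WT LICs, and 11.35 and 11.42 in Ezh2 KO LICs. Cdc20 differed by 1.04 (adjusted p = 0.0834), Ttk by 1.07 (adjusted p = 0.077) and Kif20a by 0.94 (adjusted p = 0.0591). Securin's gene Pttg1 differed by -0.36 and Ckap2 by -0.09, and neither Kif23 (-0.03) nor Smc4 (0.01) stood clear of the LSK arrays. The count of 5 was 1 without LSK replicate 1 or 2 and 2 without LSK replicate 3. It was 1, 2 and 8 without WT LIC replicates 1, 2 and 3. The 5 calls needed both Ezh2 KO arrays. With 1 of those left out, the median member difference was 0.68 without replicate 1 and 0.70 without replicate 2. Marker lists moved here too. The summed level of B cell precursor markers was 9.70 to 10.23 in LSK cells and 12.17 to 12.87 in Ezh2 KO LICs, with 4 of 7 called higher. Between LSK cells and Ezh2 KO LICs, in that order, the sums of antibody-secreting cell markers were 12.68 to 13.28 and 10.66 to 11.17, of monocytes 12.22 to 12.34 and 10.80 to 10.98, of megakaryocytes 10.42 to 11.20 and 8.78 to 8.97, and of granulocyte precursors 13.65 to 13.84 and 13.22 to 14.05. Erythroid sums were 13.07 to 13.22 and 12.05 to 12.20. The part of these lists in the mitotic levels was not tested. Both comparisons with LSK cells use the same 3 LSK arrays.

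Over the 3 groups the mean was lowest in LSK cells for 38 of 41 members, with WT LICs highest in 21 of them and Ezh2 KO LICs highest in 17. The order of WT and Ezh2 KO LICs did not pass the test for any member. Probe sets other than the brightest were available for some members, 28 in all. Of the 26 that exceeded background in at least 1 group, 25 read higher on average in WT LICs than LSK cells and 14 showed a larger difference than the brightest. Only 17 of the 26 had the same sign as the brightest for Ezh2 KO against WT LICs.

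Among known regulators of these genes, 2 of 16 measured rose in WT LICs against LSK cells and 1 fell, where 1.27% of all genes were called higher and 2.15% lower. The 16 had a median difference of 0.16, with 10 above 0 and 6 below, and the arrays overlapped for 11. The 3 called genes are given here. Foxm1, the forkhead factor of G2 transcription, read 6.92, 6.58 and 6.59 in LSK cells, 7.95, 7.84 and 7.60 in WT LICs, and 7.19 and 7.90 in Ezh2 KO LICs. It rose 1.10 in WT LICs (SE 0.22, adjusted p = 0.043). Mybl2, which encodes B-MYB, read 5.87, 6.18 and 6.42 in LSK cells, 8.40, 7.66 and 7.17 in WT LICs, and 7.50 and 7.39 in Ezh2 KO LICs, a rise of 1.59 in WT LICs (SE 0.31, adjusted p = 0.0399). Rbl2, the pocket protein of the DREAM complex in resting cells, ran the other way. It read 8.37, 8.59 and 8.63 in LSK cells, 7.27, 7.64 and 7.85 in WT LICs, and 7.98 and 8.09 in Ezh2 KO LICs, and fell by 0.94 in WT LICs (SE 0.18, adjusted p = 0.038). The arrays of WT LICs and LSK cells did not overlap for any of these 3 genes, and 10, 9 and 8 of 18 alternatives kept the call of Foxm1, Mybl2 and Rbl2. None of the 16 was called between Ezh2 KO and WT LICs or between Ezh2 KO LICs and LSK cells.

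Brakes on mitotic entry moved in both directions, with 1 of 12 measured genes risen and 1 fallen in WT LICs against LSK cells. Of all genes 1.27% were called higher and 2.15% lower there. The 12 had a median difference of 0.13, with 8 above 0 and 4 below. Cdkn1a encodes p21, a p53-induced inhibitor of cyclin-dependent kinases. It read 6.06, 6.0 and 6.91 in LSK cells, 8.63, 8.63 and 9.17 in WT LICs, and 10.51 and 9.83 in Ezh2 KO LICs. It rose 2.49 in WT LICs (SE 0.31, adjusted p = 0.0098) and 3.85 in Ezh2 KO LICs (SE 0.35, adjusted p = 0.00317), both against LSK cells. The difference of 1.36 between Ezh2 KO and WT LICs did not pass (adjusted p = 0.204). Btg2, an antiproliferative gene, read 7.11, 8.15 and 7.21 in LSK cells, 5.35, 4.86 and 4.86 in WT LICs, and 6.82 and 7.19 in Ezh2 KO LICs. It fell by 2.47 in WT LICs (SE 0.30, adjusted p = 0.00948) and differed by 1.98 between Ezh2 KO and WT LICs (adjusted p = 0.0655). Ccng1, the p53-induced cyclin G1, rose 0.81 in Ezh2 KO LICs against LSK cells (SE 0.17, adjusted p = 0.0486), a call kept under 6 of 18 alternatives.

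**Figure D5:**
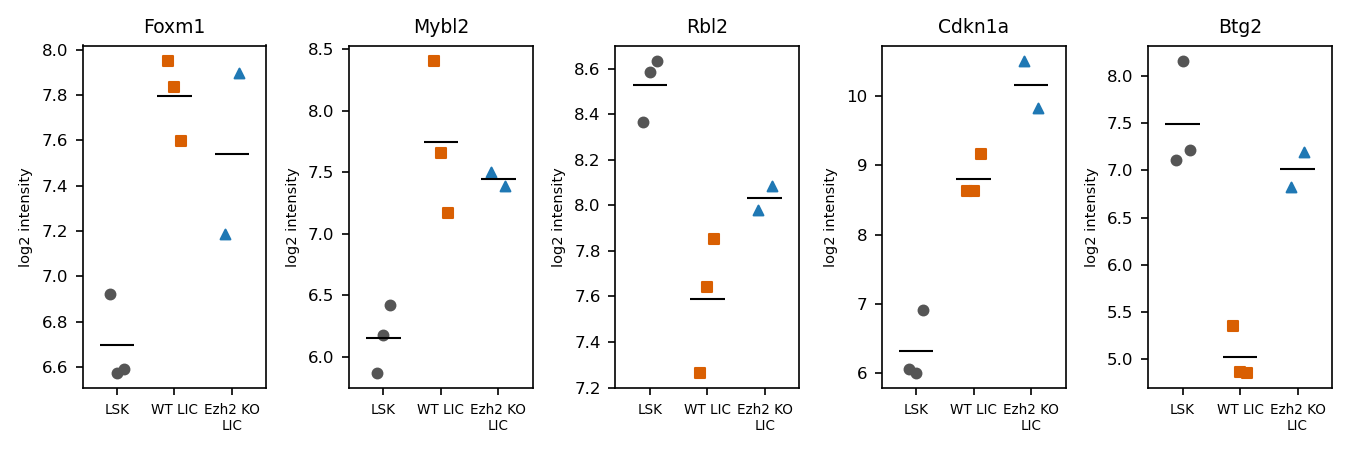
Log2 intensity (y axis) on each array for Foxm1, Mybl2, Rbl2, Cdkn1a and Btg2, with the group mean as a line, for 3 LSK, 3 WT LIC and 2 Ezh2 KO LIC arrays (x axis). Foxm1, Mybl2 and Cdkn1a lie higher and Rbl2 and Btg2 lower in WT LICs than on the LSK arrays, with no overlap between those arrays.

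Mitotic genes outside the 41 also lay mostly above 0 in WT LICs against LSK cells, with few calls. Of all genes 52.2% lay above 0 there, 1.27% were called higher and 2.15% lower. All 12 kinetochore genes (median 0.46), all 6 checkpoint and passenger genes (0.60) and all 13 spindle and centrosome genes (0.70) had differences above 0. Of these only Sgo1, the protector of centromeric cohesion, was called, with a rise of 0.84 (SE 0.16, adjusted p = 0.0353). The anaphase-promoting complex list, which includes the co-activator gene Fzr1 and the ubiquitin-conjugating enzyme gene Ube2s beside subunits, had a median of 0.05 over 13 genes with none called. Cdc23 (0.94) and Ube2s (0.69) stood clear above the LSK arrays, as 13.5% of all genes did. The other 11 overlapped, and Cdc27 was under background throughout. Condensin and cohesin subunits had a median of 0.21 over 11, with none called. Of 24 DNA replication genes 23 differences lay above 0, with a smaller median of 0.24, and 2 rose: Ccne1, cyclin E1, by 1.96 (SE 0.37, adjusted p = 0.0371) and the replication initiation factor gene Mcm10 by 1.07 (SE 0.22, adjusted p = 0.0461). Of 18 alternatives, 9 kept the call of Sgo1, 10 that of Ccne1 and 8 that of Mcm10. Between Ezh2 KO and WT LICs none of the 79 genes of these 6 lists was called. The median was 0.03 for the kinetochore list and ran from -0.25 for the anaphase-promoting complex to -0.13 for the other lists, against -0.05 over all genes. All Ezh2 KO arrays lay below all WT LIC arrays for 7 of 13 genes of that complex and 3 of 6 checkpoint and passenger genes. They did so for 5 of 13 spindle and centrosome genes and 4 of 12 kinetochore genes. The counts were 8 of 24 for replication genes and 3 of 11 for condensin and cohesin subunits, against 16.6% of all genes. All lay above for 0, 0, 1, 1, 1 and 1 genes of these lists, in the order given, against 13.2% of all genes. Against LSK cells, Ezh2 KO LICs had Sgo1 higher by 0.95 (SE 0.18, adjusted p = 0.035), kept under 9 of 18 alternatives, and no other call among these lists.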

How the data were processed

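RNA was amplified and hybridised to 1-colour arrays, per the labels' protocols; the 8 arrays fall into groups by their labels. The authors deposited linear intensity values, made with RMA per the submitters' processing notes, with its version not given in the sources used here. The plan had assumed log2 values, so log2 was taken first, with no further scaling. Of 22690 probe sets, 20380 named 1 gene symbol, 691 several and 1555 none, beside 64 controls; symbols were updated by gene number for 20351. The brightest probe set of each of 12393 genes was used, and a level under 4.01 (log2), the highest mean of 27 bacterial control probe sets, was called under background. One model over the 3 groups was fitted with limma 3.58.1 in R 4.3.3, with 5 residual degrees of freedom, and checked on simulated data; 3 arrays against 3 allow no permutation p below 0.1. Array number limits the precision. Values on every array were given for each member called in a comparison, for the 3 smallest p where no more than 3 were called, and for the smallest p of a role group without either. Called genes of other lists were named. Members, gene lists and tests were chosen with earlier results of these data known. Alternatives covered filters, scaling, variance models, replicate blocks, probe set choice, an added constant and each array left out.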

Additional observations from a re-analysis of the deposited data

How the results depend on the processing

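Over 18 alternative analyses the median member difference kept its sign for WT LICs against LSK cells (0.62 to 0.78) and for Ezh2 KO LICs against LSK cells (0.64 to 0.80). For Ezh2 KO against WT LICs it ran from -0.17 to 0.02 with single arrays left out, above 0 only without Ezh2 KO replicate 2 (0.017). The 9 members called between WT LICs and LSK cells became 14 with a trended robust prior, 17 with array weights and 15 with the mean of all probe sets, and ran from 1 to 11 with 1 array left out. The 5 called between Ezh2 KO LICs and LSK cells became 10 with genes above the 40th percentile, 8 with median centring, 10 with the trended robust prior, 9 with array weights, 8 with the mean of probe sets, 9 with 16 added before log2, 0 with only the compared groups, and 0 to 8 with 1 array left out. Between Ezh2 KO and WT LICs the count was 0 in all but 1 alternative, which called Bub1 (0 to 1 with 1 array left out). With the replicate block 1, 0 and 0 members were called in WT LICs against LSK cells, Ezh2 KO against WT LICs and Ezh2 KO LICs against LSK cells. Same-numbered arrays had deviations from their group means correlated at -0.05 to 0.14, and differently numbered arrays at -0.14 to 0.10. With 2 or 3 arrays in a group these values cannot show whether the numbers pair the samples. Median centring moved the all-gene median from 0.02 to 0.13 for WT LICs against LSK cells, with members 0.65 above it in both. Centring shifts all genes of an array alike, so that gap could not change. The higher share of calls in Ezh2 KO LICs against LSK cells moved from 46.5% to 59.7%.

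Differences near 0 changed sign. Cdc25b in WT LICs against LSK cells was -0.0017 with cyclic loess and -0.21 to 0.18 with 1 array left out (-0.03 without LSK replicate 1). Ccnf in Ezh2 KO against WT LICs was -0.0081 with median centring, -0.13 with array weights and -0.12 to 0.16 with 1 array left out (-0.0095 without WT LIC replicate 1, -0.03 without Ezh2 KO replicate 2). Cdc25c there ran from -0.55 to 0.017. The cause of these changes was not tested.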
